A study of Astyanax mexicanus with 12 samples.

Results

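Ovaries of starved surface fish were compared with ovaries of control surface fish of the same age. Surface fish are the river-dwelling form of the Mexican tetra, Astyanax mexicanus, a species that also has blind cave populations. The comparison uses 6 of the 12 RNA sequencing libraries of the study, 3 of control and 3 of starved females, chosen by their column names in the deposited count table. All 6 samples carry the genotype label WT, are right ovaries and come from females about 660 days after fertilisation. The controls are labelled as non-treated. The other 6 libraries are of Tinaja cavefish under the same treatments, and enter the filter on low counts, the shared estimate of the spread and a comparison of the responses of the populations. How long the starved fish were without food is not stated in the labels. The labels call the replicates separate samples and do not say whether they came from separate tanks, families or days, so each p-value reflects the spread among such samples and no more.

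A fish ovary holds oocytes at many stages, each wrapped in granulosa and theca cells. The growing oocyte fills with yolk taken up from the blood, builds an egg coat of zona pellucida proteins, and stores messenger RNA and ribosomes for the embryo, which for its first divisions makes little RNA of its own. The pituitary gonadotropins act on the surrounding somatic cells through the receptors fshr and lhcgr, and the steroids these cells make drive growth, maturation and ovulation. In RNA from a whole ovary, fewer cells of a type and less RNA per cell cannot be told apart.

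The label fits the oocyte markers but the follicle wall is thinly represented. The oocyte genes zar1 and zar1l reached 9188 and 11959 reads in a surface fish library, and the germ cell helicase gene ddx4 reached 5804. Of 30 granulosa cell genes in the count table, 16 had enough reads to be tested. The defining granulosa markers foxl2a and amh had at most 1 and 8 reads in any surface fish library, and star, which starts steroid synthesis, had at most 3. Among the granulosa genes tested, lhcgr, fshr and cyp19a1a reached 46, 19 and 16 reads. The depth was 7152581 to 10198881 reads in genes per surface fish library, and 14627 of 27420 genes were tested. Levels are given as CPM, counts divided by the library's size after scaling with the trimmed mean of M values (TMM) factors; these factors were 1.00 to 1.03 in the controls and 0.911 to 0.960 in the starved libraries. CPM is not divided by gene length, so levels are compared between libraries and not between genes.

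Control 1 stood apart from the other controls. On the first principal component of the 2000 most variable genes, which held 31.5% of the variance of the 6 libraries, control 2 and control 3 scored -31.8 and -31.7 and the starved libraries 19.6 to 28.6. Control 1 scored -4.66 on it, between the groups, and 41.2 on the second component (22.1% of the variance). The other 5 libraries scored between -20.9 and 7.57 on that second component.

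Among the genes called, starvation went with small rises at high read number and larger falls at ordinary read number. With edgeR's quasi-likelihood test and Benjamini-Hochberg adjustment over all genes, 466 genes were called at an adjusted p under 0.05, or 3.19% of those tested. Of these, 254 were higher (1.74%) and 212 lower (1.45%) in starved fish. Genes called higher had a median of 1722 reads per library and a median log2 fold change of 0.43, and 35 of them changed at least 2-fold. Genes called lower had a median of 193 reads, close to the 190 of all genes tested, and a median log2 fold change of -0.69, and 53 of them changed at least 2-fold. The median SE was 0.0901 for genes called higher and 0.149 for those called lower, so smaller changes could be called among the former. Whether the sizes differ beyond this was not tested. Over all genes the median log2 fold change was -0.01. The control and starved libraries did not overlap for 251 of the 254 and 211 of the 212 called genes, against 28.5% of all genes tested. The same values gave the calls, so this contrast largely follows from the selection.

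The number of calls rested on particular libraries. It was 526 without control 1, with 313 genes shared with the full set, but 30 without control 2 and 26 without control 3. Without starved 1, 2 or 3 it was 144, 172 and 82. Of the 128 called genes picked by the naming rule, 36 lost the call without control 1, 114 without control 2 and 116 without control 3. None changed direction, which says little, because the groups of nearly all called genes do not overlap. Under all 16 alternative settings 9 of them kept it: spg11, xiap, ism2b, SHANK3, ENC1, PM20D2, BLTP3A, rpl3 and st3gal8. Scaled by library size alone, without TMM factors, the median log2 fold change of all genes was -0.12 and the split of calls was 117 higher and 584 lower. Directions below are relative to the TMM scale, and 16 of the 57 gene lists had a median of the other sign on the library size scale; where such a median is printed, its other value stands beside it.

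**Figure D1:**
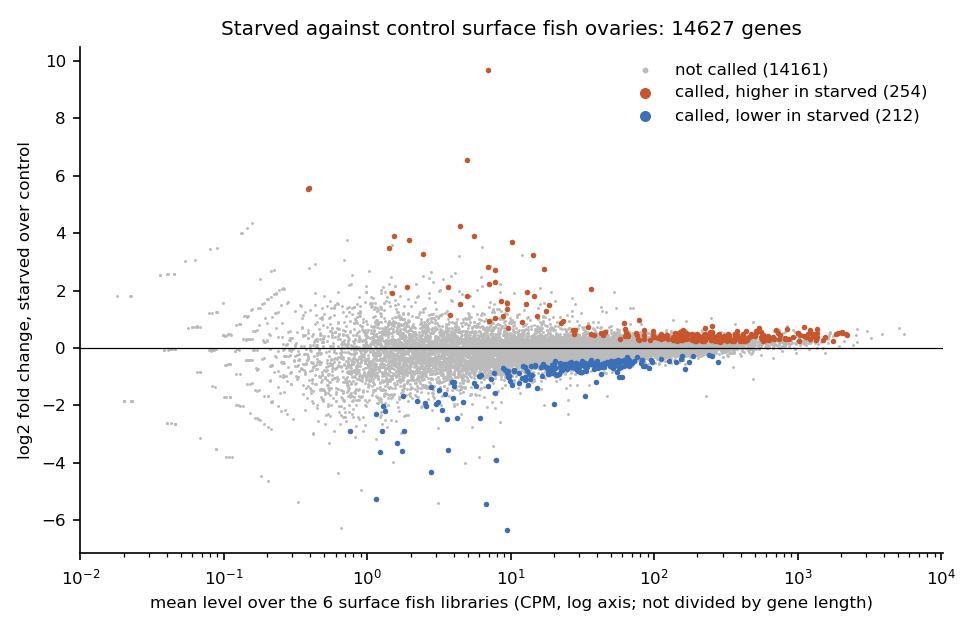
Each point is 1 of the 14627 genes tested, with its mean level over the 6 surface fish libraries in CPM on a log axis (26 genes under 0.01 CPM are not drawn) and its log2 fold change, starved over control, on the vertical axis. The 254 genes called higher (orange) lie mostly to the right with small changes, and the 212 called lower (blue) mostly in the middle with larger ones.

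Of the 57 gene lists examined, that of the cytosolic ribosomal proteins held the most risen genes. These lists were chosen with earlier results of these data known, so their counts describe the members and are not a test of the list. The edgeR counts in every list below stand beside 1.74% of all genes called higher and 1.45% called lower. Counts at an unadjusted p under 0.05 stand beside 3296 of all 14627 genes tested. Counts called by DESeq2 stand beside 1304 of 13882 genes. Counts of members above 0 stand beside 48.4% of all genes tested with a log2 fold change above 0. Cytosolic ribosomal protein genes encode the protein part of the ribosome. Of 78 tested, 27 rose and 0 fell, against 1.74% called higher among all genes. The list had a median log2 fold change of 0.41, with 76 of 78 members above 0. Their summed level was 15186 to 17204 CPM in the controls and 19921 to 23183 CPM in the starved libraries, without overlap. Control and starved libraries did not overlap for 70 of the 78 genes, 69 of them higher in starved fish, where 28.5% of all genes did not overlap.

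Among these genes, rpl3, of the large subunit near the site of peptide bond formation, measured 886, 798 and 812 CPM in the controls and 1397, 1267 and 1449.7 CPM in the starved libraries. The lowest starved library thus stood above the highest control (log2 fold change 0.72 ± 0.0942 (SE), adjusted p = 0.00624). Another large subunit gene, rpl7, measured 329, 306 and 262 CPM against 433, 408 and 508 CPM and rose by 0.59 ± 0.106 on the log2 scale. For the small subunit gene rps8a the values were 409.8, 386 and 386 CPM and 531, 521 and 593 CPM, again without overlap (0.48, adjusted p = 0.0255). The smallest rise among the 27 was 0.28. The most negative member was rpl7l1, a paralogue of rpl7, which measured 84.5, 86.7 and 82.9 CPM in the controls and 64.2, 77.8 and 59.4 CPM in starved fish and was not called (log2 fold change -0.34 ± 0.0982 (SE), adjusted p = 0.0717). Ribosomal protein genes often have near-identical copies, among which the counting could split reads. The number of calls in the list fell to 1 without control 2 and to 1 without control 3, while the list's median stayed between 0.32 and 0.45 when any 1 of the 6 libraries was left out.

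Lists of translation factors held fewer calls than the ribosomal proteins, beside 1.74% of all genes called higher and 1.45% lower. Of 67 initiation factors and regulators, 6 rose and 1 fell, and the median was 0.17. The gene eif2b4 encodes a subunit of the exchange factor that recharges eIF2, the carrier of the initiator tRNA. It measured 33.6, 38.7 and 37.3 CPM in the controls and 50.9, 57.8 and 52.5 CPM in starved fish, a gap wider than the spread of either group (log2 fold change 0.56 ± 0.107 (SE), adjusted p = 0.0289). The gene eif5a, whose product keeps ribosomes moving over difficult stretches, rose from 330.1, 279 and 328 to 412, 420.4 and 448 CPM (0.45, adjusted p = 0.0219). The poly(A)-binding protein gene pabpc1b rose by 0.40 and the eIF3 subunit gene eif3ha by 0.48. The gene that fell, eif4ebp3l, encodes a binding protein that holds back the cap-binding factor eIF4E when mTOR is inactive, and measured 17.7, 21.7 and 19.9 CPM in the controls and 15.6, 11.2 and 10.6 CPM in starved fish (-0.67, adjusted p = 0.047).

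Of 21 elongation and release factors, 2 rose: eef1b2, which reloads elongation factor 1 with GTP (0.35, adjusted p = 0.03), and abce1, which splits ribosomes after termination (0.34, adjusted p = 0.0436). Of 20 aminoacyl tRNA synthetase genes, which charge tRNAs with amino acids, 2 rose. Among these was eprs1, from 530.4, 464 and 525 to 628, 639 and 610.0 CPM (0.31, adjusted p = 0.0313); the list's median of 0.09 became -0.02 without TMM factors. Of 73 mitochondrial ribosomal protein genes only mrps6 was called, and it rose by 0.50 (adjusted p = 0.0488; list median 0.16). None of 65 ribosome assembly factors was called by edgeR, of which 13 had an unadjusted p under 0.05 and DESeq2 called 5 (median 0.08, or -0.04 without TMM factors). Over all genes these counts were 3296 of 14627 and 1304 of 13882.

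Oocyte genes were examined next. Of 36 oocyte and maternal regulator genes tested, 7 rose, 0 fell and 29 were not called, against 1.74% called higher among all genes (median 0.21, 33 of 36 above 0). Several of these act on the poly(A) tails of stored messages. The gene btg4, which recruits the deadenylase complex that clears maternal messages (known from mouse), measured 492, 348 and 392 CPM in the controls and 606, 599 and 655 CPM in starved fish. All 3 starved libraries stood above control 1, the highest control (log2 fold change 0.59 ± 0.119 (SE), adjusted p = 0.03). The gene cpeb1b, of the protein that governs polyadenylation in the maturing oocyte, rose from 1173, 1038 and 1024 to 1486, 1397 and 1595 CPM (0.47, adjusted p = 0.0488). Outside this list, the deadenylase scaffold gene cnot1 rose from 1625, 1592 and 1589 to 1823, 1841 and 2025 CPM (0.24, adjusted p = 0.0488).

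Other risen oocyte genes have roles in import and in the organisation of the egg. The egg importin gene kpna7 rose from 956, 833 and 842 to 1212, 1132 and 1236 CPM (0.44, adjusted p = 0.0488). The zar1 paralogue zar1l, of a protein that binds stored messages, rose from 907, 775 and 788 to 1142, 1103 and 1288 CPM (0.52, adjusted p = 0.0382), and the groups did not overlap. The gene zar1 did not overlap either, at 740, 597 and 629 CPM against 932, 884 and 990 CPM, but was not called (0.51, adjusted p = 0.0542). For rbpms2b, an RNA-binding protein needed for oocyte fate in zebrafish, the values were 675, 530.5 and 592 CPM and 865, 775 and 927 CPM (0.51, adjusted p = 0.0288). The growth factor genes of the oocyte were not called: gdf9 measured 66.3, 66.8 and 68.5 CPM in the controls and 74.3, 63.9 and 78.6 CPM in starved fish (adjusted p = 0.523), with overlap. Its partner bmp15 overlapped as well (adjusted p = 0.358). Neither was the yolk receptor gene vldlr called, although its groups did not overlap, with 669, 599 and 616 CPM against 694, 729.5 and 850.0 CPM (log2 fold change 0.27 ± 0.0897 (SE), adjusted p = 0.0998).

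Of 7 zona pellucida genes, which encode the egg coat, 2 rose and 5 were not called, beside 1.74% of all genes called higher. The gene zp3c measured 445, 393 and 389 CPM in the controls and 627, 553 and 806 CPM in starved fish (0.70, adjusted p = 0.0255). For zp2l2 the values were 695, 527 and 736 and 1109.9, 1046 and 904 CPM (0.64, adjusted p = 0.0423). In both the starved libraries lay above the controls, but those of zp2l1 did not, with 888, 844 and 448 CPM in the controls and 685, 1096 and 1567 CPM in starved fish (adjusted p = 0.288). Both calls were lost without control 2 and without control 3.

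Germline small RNA genes were also examined, beside 1.74% of all genes called higher. Of 16 piRNA and germ plasm genes, 2 rose: piwil1, an Argonaute protein that silences transposons with piRNAs, went from 66.6, 56.99 and 59.9 to 85.8, 85.8 and 88.9 CPM (0.51, adjusted p = 0.047). Its paralogue piwil2 rose by 0.28 (adjusted p = 0.0295). The helicase gene ddx4 was not called, at 584, 536 and 592 CPM against 669, 696 and 625 CPM (0.22, adjusted p = 0.185). Of 19 meiosis genes 1 rose, the germ cell bromodomain gene brdt, from 130.1, 110.5 and 123 to 179, 159 and 200.0 CPM (0.57, adjusted p = 0.0225). The recombinase gene dmc1, active in early meiotic prophase, had 1.33, 1.76 and 4.798 CPM in the controls and 2.99, 0.669 and 0.862 CPM in starved fish, so its groups overlapped. The synaptonemal complex gene sycp3 overlapped too, at 2.89, 0.9499 and 5.62 and 3.94, 3.08 and 2.26 CPM, and neither gene had more than 41 reads in a surface fish library. Their log2 fold changes of -0.81 and -0.03 became -0.05 and 0.67 without control 3, and that of dmc1 was -1.74 without starved 1.

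Genes of the cell cycle and of chromosome duplication rose in small numbers, beside 1.74% of all genes called higher. Of 51 cyclins and mitotic kinases 4 rose (median 0.11, or -0.00 without TMM factors). The B-type cyclin gene ccnb2, a subunit of the kinase that starts division, measured 1897, 1542 and 1549 CPM in the controls and 2552, 2278 and 2451 CPM in starved fish (0.55, adjusted p = 0.0358). Cyclin A2 (ccna2) rose by 0.39, cyclin E1 (ccne1) by 0.31 and the phosphatase gene CDC25B, which activates cyclin-dependent kinases, by 0.25. The kinase gene cdk1 itself had overlapping groups, 121, 112 and 123 and 113, 133 and 109.6 CPM (log2 fold change -0.00 ± 0.08098 (SE), adjusted p = 0.995). The related ccnb1 was not called but did not overlap, at 2019, 1871 and 1727 CPM against 2792, 2386 and 2516 CPM (adjusted p = 0.0604).

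Of 19 genes of the anaphase promoting complex, the ubiquitin ligase that ends mitosis, 3 rose. Its activator cdc20 went from 983, 911 and 932 to 1260.5, 1176 and 1363 CPM (0.43, adjusted p = 0.0294), above the range of the controls. The ubiquitin-conjugating enzyme gene ube2s rose by 0.29 and the scaffold subunit gene ANAPC1 by 0.28. Of 68 kinesin, kinetochore and spindle genes, 3 rose (4.41%), beside 1.74% of all genes called higher. They were kif11 (by 0.28), tpx2 (by 0.29) and tacc3 (by 0.32), each of a protein that builds the spindle. The median of 0.05 for the list became -0.06 without TMM factors.

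Of 59 genes of DNA replication, 5 rose and 0 fell, beside 1.74% of all genes called higher (median 0.09, or -0.02 without TMM factors). Geminin (gmnn), which blocks a second licensing of origins, is the first of these. It measured 586, 474 and 586 CPM in the controls and 874, 829.8 and 857 CPM in starved fish, with every starved library above every control (log2 fold change 0.64 ± 0.123 (SE), adjusted p = 0.0289). Its target CDT1, the licensing factor, rose by 0.27, the helicase subunit mcm7 by 0.39 and the clamp loader subunit rfc2 by 0.25. The ribonucleotide reductase subunit gene rrm2, which supplies deoxynucleotides, rose from 1131, 1096 and 1078 to 1566, 1426 and 1388 CPM (0.41, adjusted p = 0.0475). DNA repair genes went both ways. The histone gene h2ax rose from 128, 102 and 116 to 156, 153 and 184 CPM, while parp1, a sensor of broken DNA, fell from 69.7, 67.6 and 69.6 to 52.7, 51.8 and 47.6 CPM (-0.44, adjusted p = 0.0356) and the ligase gene lig3 fell by 0.49 on the log2 scale (adjusted p = 0.0409). In all, 1 of 65 repair genes rose and 2 fell, beside 1.74% of all genes called higher and 1.45% lower.

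Lists of nuclear proteins held few calls, beside 1.74% of all genes called higher and 1.45% lower. Of 61 nucleoporin and nuclear transport genes, 2 rose (kpna7 and ranbp1, a regulator of the Ran cycle, by 0.30) and 1 fell, the importin gene IPO13, from 68.6, 62.7 and 69.6 to 44.4, 53.7 and 40.3 CPM (-0.54, adjusted p = 0.0335). Of 84 chromatin genes 1 rose, the arginine methyltransferase gene prmt1 (from 1025, 964 and 1013 to 1322, 1298 and 1276 CPM). None of 65 splicing genes was called by edgeR, although 25 had an unadjusted p under 0.05, DESeq2 called 6 and 49 lay above 0 (median 0.14). Over all genes, 3296 of 14627 had an unadjusted p under 0.05, DESeq2 called 1304 of 13882 and 48.4% lay above 0. Of 51 RNA helicases 1 fell, ddx54, a nucleolar helicase (-0.53, adjusted p = 0.0389).

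A list of heterogeneous nuclear ribonucleoproteins, which package and splice nuclear RNA, was drawn up after the called genes were seen. In it 8 of 20 genes rose and 0 fell, with a median of 0.26; a count chosen this way supports nothing by itself. The gene hnrnpabb measured 469, 427 and 457 CPM in the controls and 667, 659 and 661 CPM in starved fish, so the groups were well apart (log2 fold change 0.55 ± 0.0849 (SE), adjusted p = 0.0171). A second such list holds maternal transcription and messenger RNA regulators of the embryo, with 11 of 23 higher and 0 lower. Among these, pou5f3, which with other factors opens the embryo's genome in zebrafish, rose from 737, 699.5 and 733 to 886, 876 and 986 CPM (0.34, adjusted p = 0.0389). The stem cell factor gene sall4 rose by 0.28 and the cold-inducible RNA-binding protein gene cirbpa by 0.59, from 398, 332 and 315 to 495, 516 and 567 CPM.

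**Figure D2:**
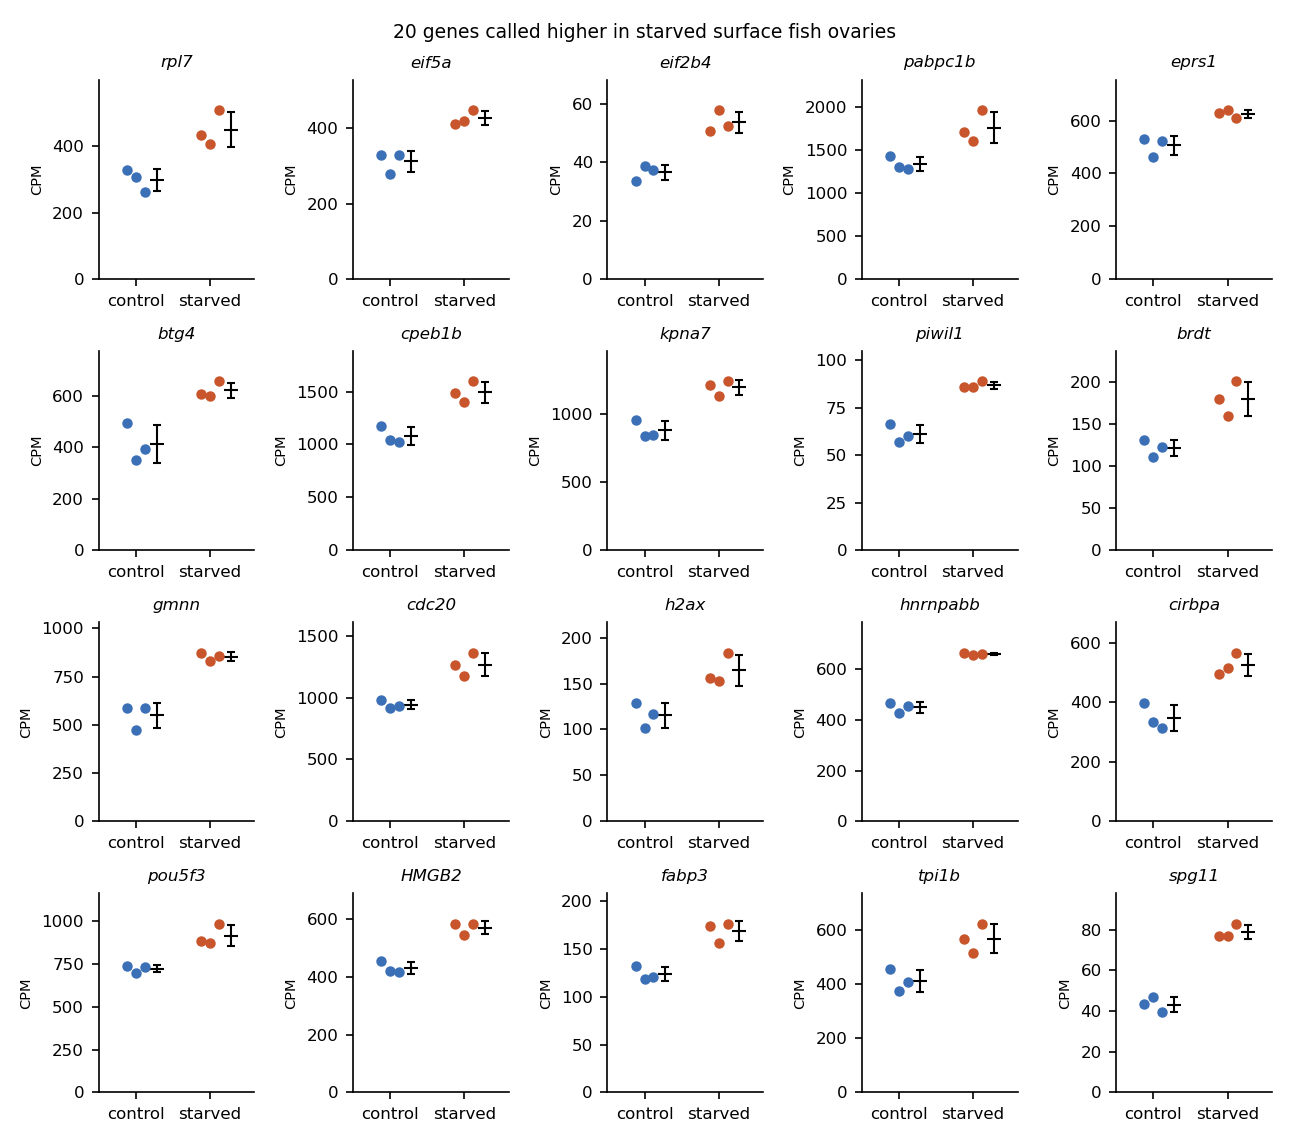
CPM of 20 genes called higher in starved surface fish, on axes that start at 0, with 1 point per library and the mean ± SD of 3 libraries (black) for the control (blue) and starved (orange) groups. The groups do not overlap in any panel; for btg4 and cirbpa control 1 is the control nearest to the starved values.

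Most granulosa cell genes on the list lay lower in starved fish, although few reads stood behind each. Of 16 granulosa cell genes tested, 1 fell and 0 rose, against 1.45% called lower among all genes, and 14 of 16 lay below 0 (median log2 fold change -1.05, or -0.82 for the 10 with at least 50 reads over the 6 libraries). Their summed level was 49.8 to 87.9 CPM in the controls and 31.9 to 46.1 CPM in the starved libraries, without overlap. The keratin gene krt8 alone had 32.6, 11.7 and 8.36 CPM in the controls and 3.53, 12.5 and 8.51 CPM in starved fish, high in control 1 and overlapping otherwise. Control and starved libraries were apart for 10 of the 16, each time lower in starved fish, against 28.5% of all genes apart in either direction. Not all members fell. The gene nr5a2 had 11.9, 12.1 and 9.60 CPM in the controls and 9.91, 13.5 and 16.4 CPM in starved fish (log2 fold change 0.25). The log2 fold changes of gja1b, wt1b and gsdf were 0.45, -0.04 and -0.24. Each of these genes overlapped between the groups and was not called. The median stayed between -1.39 and -0.97 when any 1 of the 6 libraries was left out.

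The gonadotropin receptor gene lhcgr, through which luteinizing hormone acts on the mature follicle, measured 5.55, 4.75 and 4.25 CPM in the controls and 2.31, 1.07 and 0.646 CPM in starved fish. The groups did not overlap (log2 fold change -1.87 ± 0.462 (SE), adjusted p = 0.0491); without starved 1 the log2 fold change was -2.50. The receptor gene for follicle-stimulating hormone, fshr, measured 1.69, 2.17 and 2.605 and 1.49, 0.803 and 1.400 CPM and was not called (adjusted p = 0.396). Aromatase (cyp19a1a), which makes estradiol, was at 1.93, 1.22 and 1.37 CPM in the controls and 0, 0 and 0.431 CPM in starved fish, that is at most 16 reads in any library (log2 fold change -3.11 ± 1.03 (SE), adjusted p = 0.101). Without starved 3 the starved group had no read of it, so the fitted -6.48 depended on the prior count and does not measure the fall. The inhibin subunit gene inha had 1.57, 1.22 and 1.64 CPM against 0.679, 0 and 0.108 CPM (adjusted p = 0.0965). The ovarian growth factor gene igf3 had 1.69, 1.09 and 1.64 CPM against 0.951, 0.268 and 0.323 CPM (adjusted p = 0.196; log2 fold change -1.52, or -2.25 without starved 1). In each of these the starved libraries lay below the controls, and none of these 4 was called.

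Of 16 theca and steroid synthesis genes none was called by edgeR, of which 7 had an unadjusted p under 0.05 and DESeq2 called 1 (median -0.48, or -0.20 for the 11 with at least 50 reads over the 6 libraries). Over all genes, 3296 of 14627 had an unadjusted p under 0.05 and DESeq2 called 1304 of 13882. The androgen-forming enzyme gene cyp17a1 had 0.241, 1.36 and 1.097 CPM in the controls and 0.136, 0.134 and 0.215 CPM in starved fish (adjusted p = 0.0802). The reductase gene hsd17b12a, of fatty acid elongation and assigned to steroid synthesis, had 405, 372 and 439.8 CPM against 515, 446 and 479.9 CPM (adjusted p = 0.137). The summed level of the list, to which hsd17b12a adds most, overlapped between the groups. Without that gene it was 337 to 379 CPM in the controls and 323 to 334 CPM in starved fish. A large part of this remainder was porb, at 153, 164 and 158 CPM in the controls and 129, 140 and 128 CPM in starved fish (not called, adjusted p = 0.078). The sum was not taken without porb.

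Of 21 ovulation genes, 3 fell and 0 rose, beside 1.45% of all genes called lower (median -0.66). For the 13 of them with at least 50 reads over the 6 surface fish libraries the median was -0.28; others, such as ptgs2a, passed the filter with few surface fish reads. The nuclear progesterone receptor gene pgr, needed for ovulation in zebrafish, measured 9.77, 12.2 and 12.6 CPM in the controls and 2.17, 5.09 and 4.42 CPM in starved fish (-1.56, adjusted p = 0.0488). The hypoxia factor gene hif1ab measured 208, 179 and 229 CPM against 163, 127 and 147 CPM, and again the groups were apart (-0.50, adjusted p = 0.0414). The third was lhcgr. Among the matrix genes of the list, timp2b, an inhibitor of metalloproteinases, had 57.4, 52.9 and 35.5 CPM in the controls and 85.01, 83.1 and 60.97 CPM in starved fish but was not called (adjusted p = 0.0642). Its paralogue timp2a lay the other way, at 2.41, 3.94 and 3.15 CPM in the controls and 1.36, 0.803 and 0.646 CPM in starved fish. It was not called either (log2 fold change -1.75, adjusted p = 0.0739).

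Other cell types were read from their own lists. None of 25 leukocyte, 28 innate immune, 8 blood vessel, 12 red cell, 6 liver and plasma, 17 epithelial or 53 extracellular matrix genes was called by edgeR; at an unadjusted p under 0.05 there were 2, 0, 1, 1, 0, 5 and 14. DESeq2 called 1, 0, 0, 0, 0, 4 and 4 of them. Over all genes, 3296 of 14627 had an unadjusted p under 0.05 and DESeq2 called 1304 of 13882. The macrophage receptor gene csf1ra had 88.6, 13.3 and 13.7 CPM in the controls, where control 1 stood far above the others, and 44.8, 36.7 and 25.3 CPM in starved fish. The summed leukocyte level was 78.8 to 181 CPM in the controls and 117 to 135 CPM in the starved libraries, and the summed vessel level 22.8 to 25.6 and 24.04 to 28.1 CPM, so both overlapped. Of the vessel markers cdh5 and pecam1a had at most 3 and 6 reads. The part these cells had in the granulosa and ovulation values was not tested.

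Of 20 muscle genes 1 rose, MYOM2, of a sarcomere protein, from 5.55, 1.22 and 1.23 to 17.4, 27.4 and 32.6 CPM (log2 fold change 3.25 ± 0.509 (SE), adjusted p = 0.0197; 4.38 without control 1). The summed muscle level overlapped, at 196 to 261 CPM in the controls and 228 to 334 CPM in starved fish. The desmosome gene pkp2 rose from 16.6, 15.6 and 15.2 to 33.7, 31.1 and 21.4 CPM (0.86, adjusted p = 0.047), and was the only one called of 55 junction genes.

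**Figure D3:**
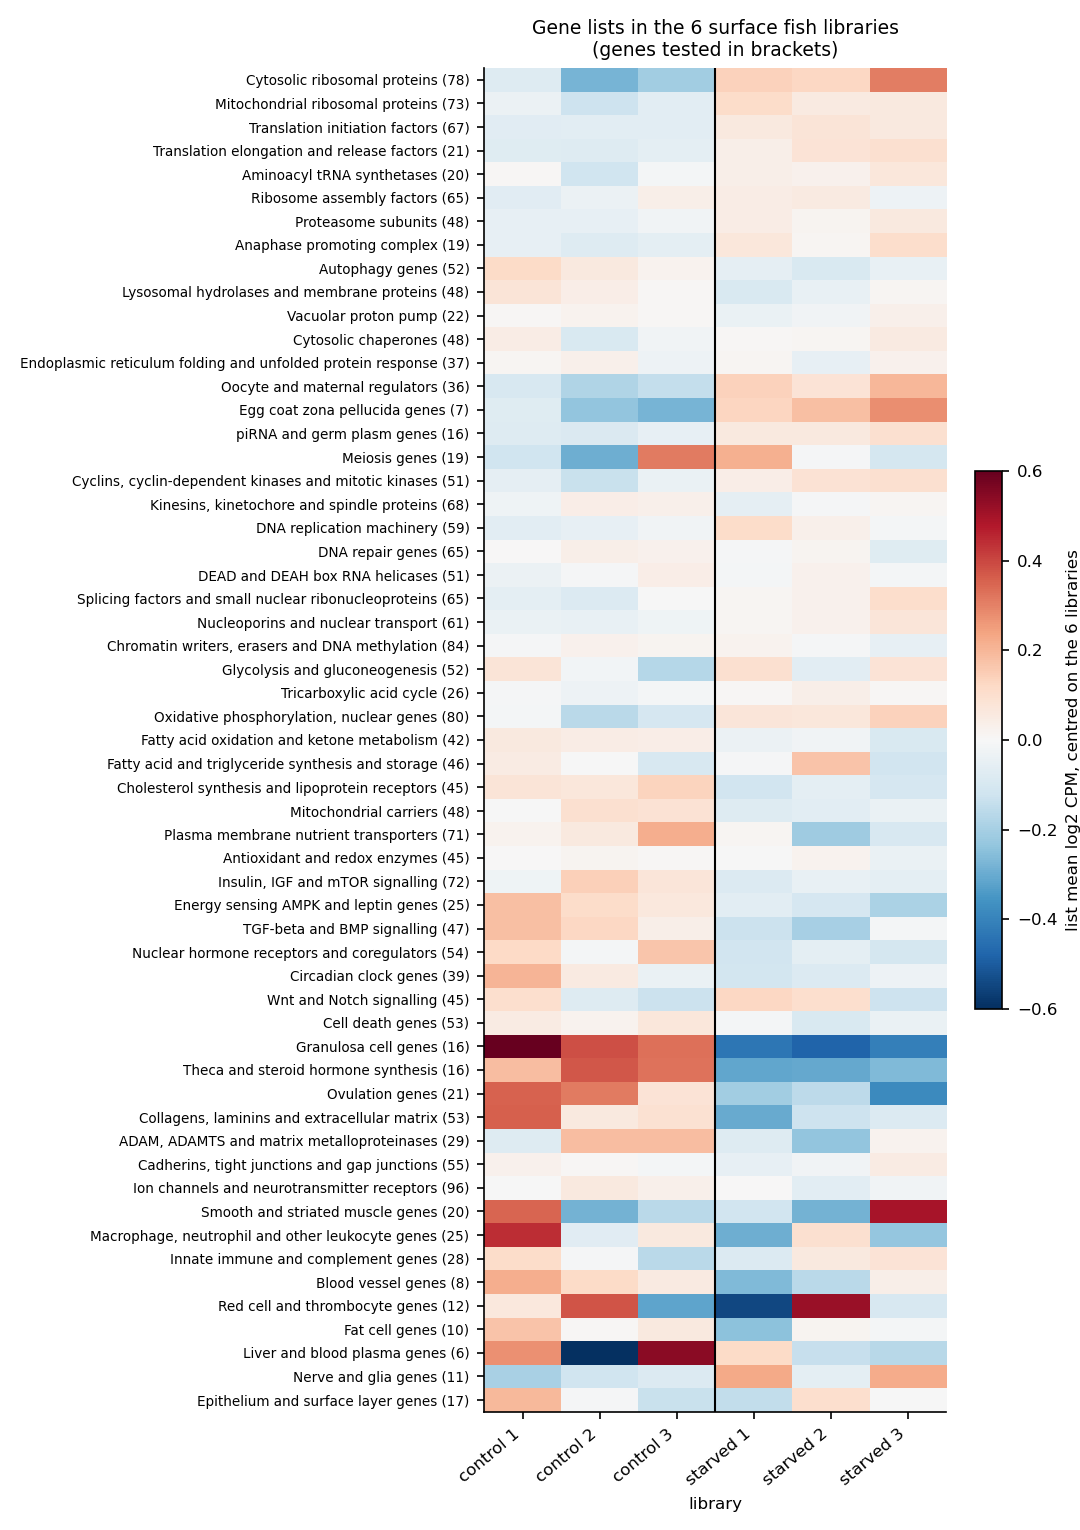
Mean log2 CPM of each of 57 gene lists in the 6 surface fish libraries, centred on the mean of the 6, with red above and blue below it; colours stop at 0.6 in either direction. Granulosa genes are red in all 3 controls and blue in all 3 starved libraries, and control 1 is red for leukocyte, matrix and muscle genes. For muscle genes starved 3 is higher still (mean log2 CPM 2.81, against 2.66 in control 1).

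Metabolic genes were read against the 3.19% of all genes called in either direction and the 48.4% with a log2 fold change above 0. Of 80 nuclear genes of oxidative phosphorylation 76 lay above 0 (median 0.17) but only ndufs3, a complex I subunit, rose, from 91.9, 85.9 and 83.6 to 107, 115 and 116 CPM (0.37, adjusted p = 0.0288). In the tricarboxylic acid cycle, 1 of 26 genes rose, dlst, of the ketoglutarate dehydrogenase complex (0.33, adjusted p = 0.0337). Of 52 genes of glycolysis and gluconeogenesis 2 rose and 2 fell (median 0.11, or -0.00 without TMM factors). Triosephosphate isomerase (tpi1b) rose from 455, 374 and 408 to 566, 515 and 623 CPM (0.46, adjusted p = 0.0408), and pdha1a, the catalytic subunit gene of pyruvate dehydrogenase, rose by 0.38 (adjusted p = 0.047).

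The gene of a kinase that shuts pyruvate dehydrogenase off, PDK3, fell. It measured 12.5, 14.7 and 11.5 CPM in the controls and 4.75, 7.899 and 6.79 CPM in starved fish, with every starved library below every control (log2 fold change -0.99 ± 0.216 (SE), adjusted p = 0.0374). The gene pfkfb2a, of the enzyme that sets fructose 2,6-bisphosphate, fell from 4.702, 4.61 and 9.18 to 1.09, 0.268 and 1.83 CPM (-2.49, adjusted p = 0.0458); without starved 3 its log2 fold change was -3.16.

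Lipid genes went both ways. Of 46 genes of fatty acid and triglyceride synthesis and storage, 3 rose and 3 fell, of which the 4 of smallest adjusted p are given. The fatty acid binding protein gene fabp3 rose from 132, 119 and 120.5 to 173, 156 and 176 CPM (0.45, adjusted p = 0.0216), and the elongase gene elovl1a by 0.30. The acyl-CoA synthetase gene acsl3b, of lipid droplet growth, fell from 16.9, 29.04 and 26.2 to 12.4, 12.99 and 13.1 CPM (-0.90, adjusted p = 0.0402). The acyltransferase gene agpat5, of phosphatidic acid synthesis, fell by 0.59 on the log2 scale. Hormone-sensitive lipase (LIPE), which releases fatty acids from stored fat, fell from 58.6, 45.6 and 60.9 to 28.2, 12.05 and 31.2 CPM (-1.20, adjusted p = 0.0477). It was the only one called of 10 fat cell genes, whose summed level was 105 to 121 CPM in the controls and 73.6 to 96.3 CPM in starved fish. LIPE carried that gap: without it the sums were 58.7 to 62.7 and 57.4 to 65.1 CPM and overlapped. None of 42 genes of fatty acid oxidation was called by edgeR (7 at an unadjusted p under 0.05, and 1 called by DESeq2), among them cpt1aa, of the entry step to mitochondria, with 10.7, 9.91 and 11.4 CPM against 8.42, 6.16 and 4.31 CPM. Over all genes, 3296 of 14627 had an unadjusted p under 0.05 and DESeq2 called 1304 of 13882.

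Of 45 cholesterol genes, 2 fell (median -0.20). The lamin B receptor gene lbr, which also encodes a sterol reductase, fell from 57.6, 72.7 and 80.5 to 33.5, 45.3 and 37.7 CPM (-0.85, adjusted p = 0.0337). The liver X receptor gene nr1h3, a sensor of oxidised sterols, fell from 50.04, 55.2 and 58.3 to 37.3, 38.3 and 39.8 CPM (-0.50, adjusted p = 0.0202). The rate-limiting enzyme gene hmgcra measured 3.74, 1.900 and 2.74 and 1.22, 1.61 and 1.83 CPM and was not called (adjusted p = 0.33). The lipoprotein receptor gene ldlra had at most 8 reads and was not tested.

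Carriers of nutrients were called in both directions. Of 71 plasma membrane nutrient transporters, 3 fell and 1 rose, and 52 lay below 0 (median -0.18). The glutamine carrier gene slc1a5 measured 11.6, 16.1 and 16.04 CPM in the controls and 5.296, 6.56 and 5.92 CPM in starved fish, at levels that did not overlap (log2 fold change -1.29 ± 0.257 (SE), adjusted p = 0.0294). The creatine carrier gene slc6a8 fell from 4.099, 4.21 and 3.701 to 1.22, 1.34 and 0.646 CPM (-1.91, adjusted p = 0.0408). The fatty acid transporter gene slc27a1a fell from 68.6, 75.2 and 72.5 to 56.2, 59.3 and 57.2 CPM (-0.32, adjusted p = 0.0481). The organic cation transporter gene slc22a2 was the one that rose, from 0.241, 0.271 and 0.822 to 5.84, 4.55 and 2.91 CPM (3.28, adjusted p = 0.047), or 4.03 without control 3. Of 48 mitochondrial carriers, 3 fell. Both paralogues of the pyrimidine nucleotide carrier were among them, slc25a36a at 6.87, 9.63 and 7.95 CPM against 3.26, 2.81 and 3.66 CPM (-1.32, adjusted p = 0.0255) and SLC25A36 (-0.55, adjusted p = 0.0488), together with slc25a43 (-1.03, adjusted p = 0.0458).

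Amino acid genes were listed after the calls were seen, so their counts support nothing by themselves. Of 41 tested, 3 fell and 1 rose. Carbamoyl phosphate synthetase (CPS1), the entry enzyme of the urea cycle in mammals, measured 38.7, 40.03 and 37.7 CPM in the controls and 20.8, 19.5 and 24.1 CPM in starved fish (log2 fold change -0.85 ± 0.1300 (SE), adjusted p = 0.0171). Both alanine aminotransferase genes fell, gpt2 from 62.3, 34.7 and 71.1 to 30.3, 26.6 and 31.7 CPM (-0.92, adjusted p = 0.047) and GPT from 24.4, 28.8 and 30.4 to 15.3, 17.9 and 18.4 CPM (-0.69, adjusted p = 0.0458). The leucine breakdown gene mccc1 rose by 0.46 (adjusted p = 0.0488).

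Genes of nutrient sensing were called at about the share of all genes (3.19%). Of 25 genes of energy sensing 1 fell, the leptin receptor gene lepr, and 20 lay below 0 (median -0.19). Leptin signals fat stores in mammals. The gene lepr measured 19.05, 24.7 and 21.7 CPM in the controls and 9.51, 11.6 and 12.3 CPM in starved fish (log2 fold change -0.96 ± 0.166 (SE), adjusted p = 0.0255). Its downstream factor gene stat3 had 11.9, 15.9 and 9.596 CPM against 7.74, 4.95 and 6.25 CPM, without overlap, and was not called (adjusted p = 0.387). The catalytic subunit gene of AMP-activated kinase, prkaa1, had 53.5, 72.6 and 57.6 and 54.5, 60.5 and 60.5 CPM with overlap.

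Of 72 genes of insulin, IGF and mTOR signalling, 2 fell (median -0.07). The gene fnip2, of a folliculin partner that links amino acid supply to mTOR complex 1, measured 146, 153 and 142 CPM in the controls and 111, 107 and 101 CPM in starved fish (-0.47, adjusted p = 0.0216). The other was eif4ebp3l. The kinase gene mtor had 329, 310.3 and 303 CPM against 328, 341 and 378 CPM (adjusted p = 0.171) and the insulin receptor gene insra 135, 126 and 99.5 CPM against 113, 119 and 99.00 CPM, and both overlapped. The starvation-responsive genes foxo1a, foxo3b, sesn1 and txnipa, which rise in many fasted mammalian tissues, were not called (adjusted p = 0.579, 0.413, 0.867 and 0.146). Of these txnipa had 51.7, 43.6 and 73.6 CPM in the controls and 25.4, 41.2 and 36.7 CPM in starved fish, without overlap and lower in starved fish.

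Genes of protein turnover were also called at about the share of all genes. Of 52 autophagy genes, 2 fell and 0 rose (median -0.06). The initiating kinase gene ULK2 measured 21.7, 31.5 and 23.3 CPM in the controls and 12.6, 14.3 and 14.9 CPM in starved fish (-0.87, adjusted p = 0.0337), and the autophagosome factor gene tecpr2 42.8, 43.4 and 45.6 CPM against 30.1, 31.9 and 26.5 CPM (-0.58, adjusted p = 0.0385). The autophagy receptor gene sqstm1 overlapped, at 9.65, 10.3 and 9.05 and 9.37, 10.4 and 17.9 CPM. Of 48 lysosomal genes 1 rose, lamp2, of the lysosomal membrane (0.31, adjusted p = 0.0325), and the yolk-processing protease gene ctsla had 465, 428 and 468 and 496, 431 and 492 CPM with overlap. Of 22 proton pump subunits 1 fell, atp6v0a1a (-0.53, adjusted p = 0.047). The proteasome list gave 1 rise in 48, psmd3 (0.35, adjusted p = 0.0256).

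Of 48 cytosolic chaperones, 2 rose, hspa8, the constitutive Hsp70, from 1985, 1789.6 and 1823 to 2515, 2393 and 2695 CPM (0.44, adjusted p = 0.0295), and the chaperonin subunit gene cct5 (0.27, adjusted p = 0.0466). In the endoplasmic reticulum list of 37 genes 1 rose and 1 fell. The unfolded protein response factor gene xbp1 fell from 3.496, 7.06 and 3.84 to 1.901, 0.803 and 0.9695 CPM (-1.96, adjusted p = 0.04), and the secreted factor gene cdnf rose from 0.723, 0 and 0 to 3.53, 2.68 and 4.85 CPM (3.76, adjusted p = 0.0288). All control reads of cdnf were in control 1. Without that library the fitted value of 7.78 depended on the prior count and does not measure the rise. The main chaperone of that compartment, hspa5, overlapped at 1095, 1121 and 1071 and 1076, 1206 and 1275 CPM (adjusted p = 0.518). A related membrane-bound factor gene, creb3l3l, fell from 3.496, 3.39 and 3.56 to 1.22, 0.803 and 0.862 CPM (-1.85, adjusted p = 0.0171).

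Cell death genes gave 2 falls in 53, beside 1.45% of all genes called lower. The caspase inhibitor gene xiap measured 82.1, 86.6 and 60.7 CPM in the controls and 32.9, 38.8 and 41.5 CPM in starved fish, every starved library below every control (log2 fold change -1.02 ± 0.148 (SE), adjusted p = 0.0137), and this call held in every alternative run. The apoptosome scaffold gene apaf1, which promotes caspase activation, also fell, from 22.5, 22.4 and 24.5 to 16.4, 11.4 and 14.8 CPM (-0.71, adjusted p = 0.0289).

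Of 39 clock genes, 3 fell and 0 rose, beside 1.45% of all genes called lower (median -0.21). The activator clockb measured 57.9, 80.6 and 71.3 CPM in the controls and 48.1, 43.5 and 37.8 CPM in starved fish (-0.70, adjusted p = 0.0255), the output factor tefb 58.8, 58.9 and 55.7 CPM against 41.3, 43.9 and 40.1 CPM (-0.47, adjusted p = 0.0255), and the repressor cry2 38.7, 33.2 and 29.5 CPM against 23.6, 22.6 and 23.5 CPM (-0.54, adjusted p = 0.047). All 3 pairs of groups were apart. The period genes per1b and per2 overlapped (adjusted p = 0.662 and 0.332). The labels do not state the hour of sampling.

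Membrane lipid signalling and vesicle traffic were described with lists drawn up after the calls were seen. The counts in these lists therefore support nothing by themselves, also where the share of all genes stands beside them. Of 74 phosphoinositide and diacylglycerol enzymes 7 fell and 0 rose, beside 1.45% of all genes called lower (median -0.16). Myotubularin (mtm1), which removes a phosphate from endosomal phosphoinositides, measured 38.6, 35.1 and 34.96 CPM in the controls and 23.8, 24.2 and 23.5 CPM in starved fish (log2 fold change -0.60 ± 0.0959 (SE), adjusted p = 0.0197). The kinase gene pi4kaa, which makes the plasma membrane pool of PI4P, fell from 168, 169 and 179 to 145, 135 and 142 CPM (-0.29, adjusted p = 0.0491). Diacylglycerol kinase genes DGKQ and dgke fell by 0.71 and 1.22, and both PPIP5K paralogues, of inositol pyrophosphate synthesis, by 0.53 and 0.68 on the log2 scale.

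Of 37 TBC genes, which switch Rab GTPases off, 3 fell. EVI5L measured 13.9, 16.8 and 17.00 CPM in the controls and 6.79, 6.43 and 7.002 CPM in starved fish (-1.23, adjusted p = 0.0255), and its paralogue EVI5 70.2, 82.6 and 83.1 CPM against 56.2, 53.4 and 49.9 CPM (-0.56, adjusted p = 0.0255). Of 14 phospholipid flippases, 2 fell, among them atp10d (-1.03, adjusted p = 0.0255). Of 105 genes of vesicle tethering and endosomes, 5 fell and 2 rose. A pair of partner proteins of lysosome renewal moved in opposite directions: spg11 (spatacsin) rose from 43.5, 46.7 and 39.5 to 76.7, 76.98 and 82.9 CPM (log2 fold change 0.87 ± 0.0802 (SE), adjusted p = 0.000781), and zfyve26 (spastizin) fell from 80.4, 77.5 and 75.4 to 54.5, 63.2 and 45.4 CPM (log2 fold change -0.52 ± 0.103 (SE), adjusted p = 0.0294). LYST, of lysosome size control, fell from 176, 172 and 151 to 126, 108 and 117 CPM (-0.51, adjusted p = 0.0255).

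Further named falls were in glycan and ubiquitin enzymes and in signalling. The Golgi mannosidase gene man2a1 fell from 103, 105 and 133 to 66.5, 56.6 and 84.1 CPM (-0.71, adjusted p = 0.0288) and the sialyltransferase gene st3gal8 from 50.04, 47.6 and 52.6 to 35.2, 31.6 and 31.9 CPM (-0.61, adjusted p = 0.00787). The Notch ubiquitin ligase gene mib1 fell from 85.4, 117 and 115 to 67.1, 72.3 and 63.4 CPM (-0.64, adjusted p = 0.0288), and lats1, a kinase of the Hippo pathway, from 171, 168 and 183 to 122, 132 and 142 CPM (-0.39, adjusted p = 0.0259). The list of Wnt and Notch genes does not hold mib1. None of its 45 tested members and none of 47 TGF-beta and BMP genes was called by edgeR (6 and 9 at an unadjusted p under 0.05, and 3 and 2 called by DESeq2). Over all genes such counts were 3296 of 14627 and 1304 of 13882.

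**Figure D4:**
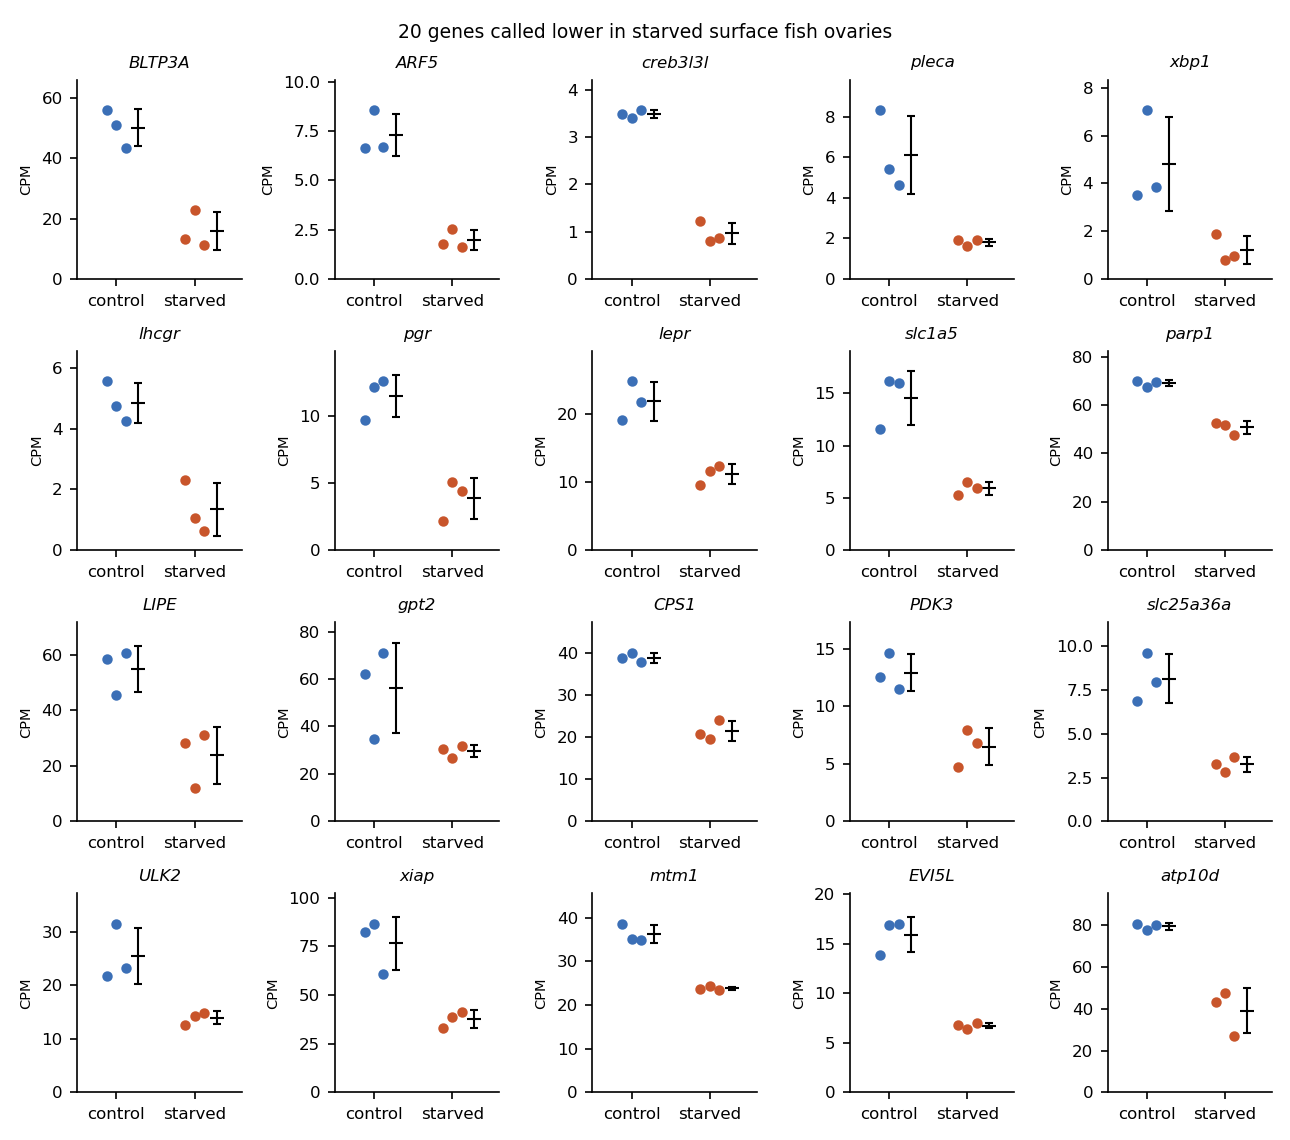
CPM of 20 genes called lower in starved surface fish, on axes that start at 0, with 1 point per library and the mean ± SD of 3 libraries (black) for the control (blue) and starved (orange) groups. No panel has overlapping groups; BLTP3A lies between 43.6 and 55.9 CPM in the controls and between 11.3 and 23.03 in starved fish.

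Further genes of large change follow. Among rises, ism2b, of an isthmin-type secreted protein, measured 5.55, 2.85 and 4.798 CPM in the controls and 44.1, 24.8 and 20.8 CPM in starved fish (log2 fold change 2.75 ± 0.305 (SE), adjusted p = 0.00294). ENC1, of an actin-binding kelch protein, measured 2.53, 2.44 and 2.74 CPM against 10.05, 14.2 and 14.2 CPM (2.31, adjusted p = 0.00586). The dynein regulator gene drc1, of motile cilia, rose from 13.5, 12.9 and 15.9 to 87.9, 46.99 and 40.8 CPM (2.05, adjusted p = 0.0174), and VASH2, of a tubulin-processing enzyme, from 5.55, 5.97 and 4.39 to 29.2, 15.5 and 17.02 CPM (1.95, adjusted p = 0.0171). The largest rises were named only where the groups did not overlap, so the lowest starved library lay above every control by that choice. This held for NAV2 and itprip too, but 1 starved library in each lay close to the controls. In starved fish NAV2 had 26.5, 27.6 and 3.02 CPM and itprip 22.00, 2.54 and 15.7 CPM. Their controls had 0.965, 1.22 and 2.19 and 2.17, 2.17 and 1.78 CPM.

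Among falls, BLTP3A, of a lipid transfer protein family, measured 55.9, 51.02 and 43.6 CPM in the controls and 13.4, 23.03 and 11.3 CPM in starved fish (log2 fold change -1.66 ± 0.208 (SE), adjusted p = 0.00586). ARF5, a GTPase of vesicle budding at the Golgi, fell from 6.63, 8.55 and 6.72 to 1.77, 2.54 and 1.62 CPM (-1.89, adjusted p = 0.0129). The cytoskeletal linker gene pleca fell from 8.32, 5.43 and 4.66 to 1.901, 1.61 and 1.94 CPM (-1.75, adjusted p = 0.0255). The voltage-gated potassium channel gene kcnd3 fell from 1.33, 2.17 and 3.29 to 0.272, 0.134 and 0.431 CPM (-2.90, adjusted p = 0.047), and was the only one called of 96 ion channel and transmitter receptor genes. The 5_8S_rRNA gene was called lower as well (-2.44, adjusted p = 0.0279), in libraries that were depleted of ribosomal RNA.

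The response was set against that of Tinaja cavefish, in which 3 genes were called (0.0205% of those tested). Among the 254 genes that rose in surface fish, the median log2 fold change in Tinaja was -0.00 and 122 had the same sign there. Among the 212 that fell it was 0.01 and 100 had the same sign. Over all 14627 genes tested, 7009 had the same sign in both populations. The Tinaja calls were not counted under the alternative settings. The difference between the responses was called for 10 genes (0.0684% of those tested), of which 5 had risen and 2 had fallen in surface fish. The gene spg11 measured 103 ± 4.33 CPM (SD, n = 3) in control and 103 ± 5.72 CPM in starved Tinaja fish, against 43.5, 46.7 and 39.5 CPM in control and 76.7, 76.98 and 82.9 CPM in starved surface fish (difference of log2 responses, Tinaja minus surface, -0.87, adjusted p = 0.0115). SHANK3, of a synaptic scaffold, went from 1.21, 0.407 and 0.411 to 8.69, 9.37 and 13.2 CPM in surface fish and from 6.21 ± 0.930 to 5.13 ± 1.29 CPM in Tinaja (difference -4.17, adjusted p = 0.0115). PM20D2, of a peptidase family, went from 0.121, 0.271 and 0.137 to 3.12, 3.75 and 1.72 CPM in surface fish and from 12.5 ± 1.99 to 14.7 ± 1.14 CPM in Tinaja (difference -3.66, adjusted p = 0.0192). In all 3 genes the control surface fish were the lowest of the 4 groups. The control surface fish had only 1, 2 and 1 reads of PM20D2 and 10, 3 and 3 of SHANK3. The sizes of the changes in PM20D2 and SHANK3 are therefore uncertain. For the other genes named above the difference between the populations was not called.

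**Figure D5:**
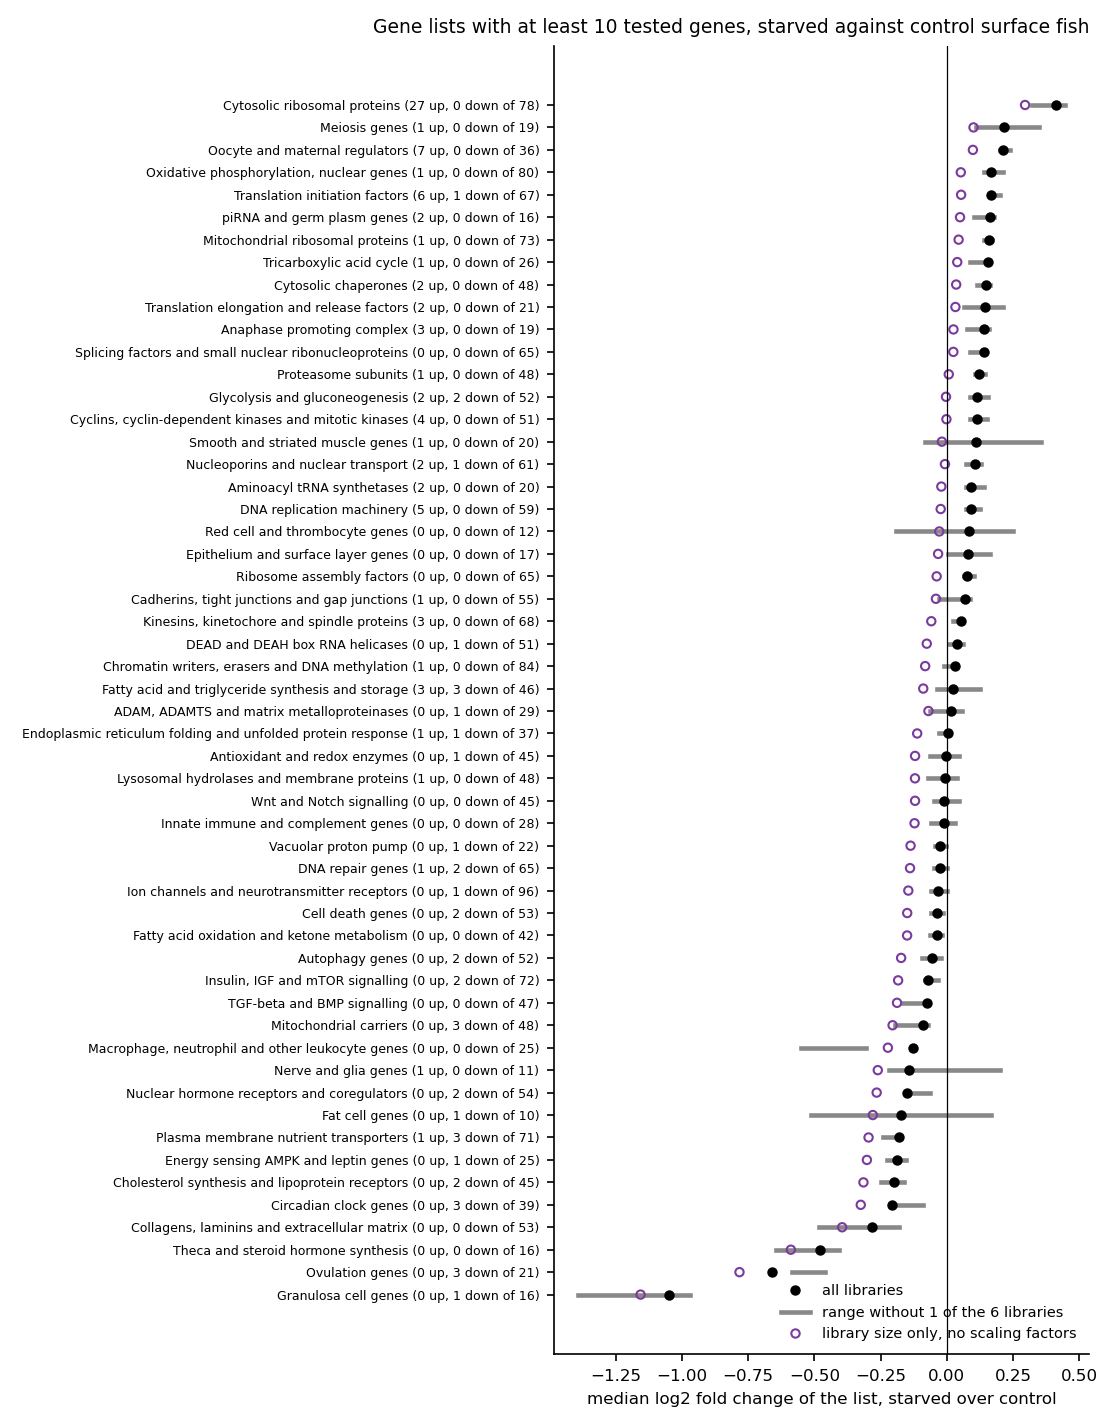
Median log2 fold change, starved over control, of each gene list with at least 10 tested genes (black points), with the range when any 1 of the 6 libraries is left out (grey bars) and the value with library size as the only scaling (open circles); labels give the genes called in each direction. Cytosolic ribosomal proteins are highest at 0.41 and granulosa cell genes lowest at -1.05.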

How the data were processed

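Raw counts (whole reads for each gene) were deposited by the authors for 12 ovary libraries, which per the labels' protocols were ribosome-depleted and directional. STAR 2.7.10b and RSEM appear in the submitters' processing notes. Genome build, annotation and strand setting: not given in the sources used here. Overlapping, antisense and near-identical genes are therefore uncertain. The authors also deposited a signal table of 14627 genes. Its values equal TMM-scaled CPM, 100% came back as whole reads (tolerance 0.001), and testing these recovered reads called 466 genes. Reads outside the gene rows were set aside. In surface fish these were unmapped (7.28% to 10.1% of reads), mapped to several places (9.91% to 13.0%), outside genes (14.1% to 16.8%) or ambiguous (0.284% to 0.368%).

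The test was the quasi-likelihood F test of edgeR 4.0.16 (R 4.3.3), on genes kept by its expression filter (minimum count 10), with TMM factors and a mean for each of the 4 groups estimated from the 12 libraries (8 residual degrees of freedom, biological coefficient of variation 0.191). P-values were adjusted by Benjamini-Hochberg over all genes, with a threshold of 0.05. The SE is the absolute log2 fold change over the root of F, and its median was 0.172. Folds against groups with at most 3 reads are bounds against 3 counts or ratios with a 95% counting interval, which cover counting error only. The code was tested on simulated data. DESeq2 1.42.0 and limma 3.58.1 were alternatives.

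The lists and members were chosen with earlier results of these data known, and 9 lists were added after the calls were seen. Named genes are the 14 largest rises and 14 largest falls with a real name, at least 1 CPM and no overlap, the 12 called genes of highest level in each direction, the 12 of smallest adjusted p, up to 4 called members per list and 40 key genes. Of the key genes, pdk2a was not among the symbols counted. The key genes ppargc1a and ldlra, with at most 1 and 8 reads in a surface fish library, were not tested. Members of added lists, uncalled members given beside these, and genes without a symbol were chosen after their values were seen. Promoter motifs and sequences were not analysed here, and some called genes are not reported here.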

Additional observations from a re-analysis of the deposited data

Results flagged for a closer look

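The response to starvation differed between the populations for 7 genes called in surface fish, by the edgeR test of the difference itself (Tinaja minus surface, on the log2 scale). It was -0.87 for spg11, -4.17 for SHANK3 and -3.66 for PM20D2, whose levels are given above; without control 1 the surface fish change of SHANK3 was 4.62. The mitochondrial ion exchanger gene letm1 fell in surface fish from 23.9, 25.8 and 25.1 to 13.9, 14.5 and 15.8 CPM and went from 16.4 ± 0.394 to 22.05 ± 2.11 CPM (SD, n = 3) in Tinaja, a difference of 1.19 (adjusted p = 0.0192). It and the next 3 genes, known only by identifiers, were named after their values were seen. ENSAMXG00000031665 fell in surface fish from 4.94, 4.48 and 6.58 to 0.272, 0.402 and 0.108 CPM and went from 3.59 ± 0.897 to 7.11 ± 2.56 CPM in Tinaja, a difference of 5.30 (adjusted p = 0.00678). ENSAMXG00000032655 and ENSAMXG00000038070 had 0 reads in every control surface fish and -9.81 and -5.97 as fitted differences, which depend on the prior count. Their surface fish rises were at least 105-fold and at least 6.03-fold, against 3 counts over the control group.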

How the results depend on the processing

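Leaving out 1 library moved the surface fish calls between 26 and 526 (16 to 285 higher, 10 to 241 lower), and those of the difference between 8 and 52. The 6 surface fish libraries alone gave 141 calls (77 higher, 64 lower), DESeq2 1304 (741 and 563, with 462 of the 466 among them) and 255 for the difference, and library size alone, added after seeing the data, 701 (117 and 584). Upper-quartile factors gave 152 higher genes. The counts under voom (461), no filter (416), at least 50 reads (516), thinning to 5949155 reads per library (403) and recovered whole reads (466, also added later) were within 1.5 times of 466. The cause of these moves was not tested. Between 0 and 116 of the 128 called named genes lost the call per setting. None changed direction, which says little for genes whose groups do not overlap. Of the uncalled ones, sycp3, sesn1 and cdk1, all close to 0, changed sign when 1 library was left out. Deviations of same-numbered control and starved libraries correlated at 0.0562, -0.00457 and 0.0182, so the numbers were not taken as pairs; with the replicate number as a block 80 genes were called (47 higher, 33 lower), 78 of them among the 466. Not every library correlated best with its own number. The promoter motif search was not run. Counting error is wide for genes with few reads, such as the steroid enzymes.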

Other observations

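Of the called genes, 42 of the 254 higher and 46 of the 212 lower carry no symbol. Values of genes outside the naming rule follow. The clone-named si:ch211-122f10.4 had 1, 1 and 0 reads in the controls and 76, 76 and 83 in starved fish, a ratio of 112 (95% counting interval 30.6 to 929). The lipoxygenase gene alox5a had 0 reads in every control and 8, 6 and 4 in starved fish, at least 5.71-fold more. ENSAMXG00000001557 had 14, 16 and 21 reads in the controls and 1, 0 and 0 in starved fish, a ratio of 53.6 (9.19 to 2157).

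Cohesin and ubiquitin protease genes were listed after the calls were seen, so their counts support nothing by themselves. Of 23 genes of cohesin and chromosome structure, 3 rose: the cohesin release factor gene WAPL, from 378, 302 and 328 to 429.9, 428 and 438 CPM (0.36, adjusted p = 0.0295), its partner PDS5B by 0.24 and the ring subunit rad21a by 0.24. Of 36 ubiquitin specific proteases, USP7 rose by 0.28 and 3 fell. The mitochondrial usp30, which restrains removal of damaged mitochondria, fell from 29.3, 34.7 and 35.9 to 18.5, 23.7 and 24.9 CPM (-0.57, adjusted p = 0.0488). The cytoplasmic actin gene actb2, often used as a reference in PCR, rose from 1776, 1455 and 1417 to 2168, 2014 and 2249.9 CPM (0.47, adjusted p = 0.0414), without overlap; without TMM factors its direction was the same.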
